A study of Mus musculus with 11 samples.

Results

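Interferon-stimulated genes and genes of class I antigen presentation were examined in bulk RNA sequencing of mouse gastric corpus mucosa, the acid-secreting part of the stomach lining. They were a list of 52 gene symbols, matched by symbol to the 34866 gene rows of the deposited table, and all 52 were found, which is 0.149% of the rows. All 52 also passed the filter on low counts, among 14889 genes tested. The 11 samples fell into 4 genotypes: 2 controls with the genotype WT (wild type), 3 ATP4B-DTR samples, 3 GIF-DTR samples and 3 GIF/ATP4B-DTR samples, whose label names both. DTR is the diphtheria toxin receptor, which makes a mouse cell sensitive to the toxin. The study set out to remove parietal cells, which carry the proton pump subunit Atp4b, and chief cells, which make intrinsic factor (Gif) in the mouse. The labels give no age, strain, sex, toxin dose or time of collection, and do not say whether the controls received toxin. The titles of the line samples carry distinct codes, but no label says whether these name separate mice, so the p-values below measure the spread between samples, which may be in part technical.

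Interferons are secreted alarm proteins that bind receptors on most cells and, through Janus kinases, activate transcription factors that enter the nucleus. Type I and type III interferons act mainly on the interferon-stimulated response element, and type II interferon acts mainly on the gamma-activated sequence. The genes they switch on include blockers of virus replication, sensors of foreign nucleic acid, GTPases that attack the vacuoles of intracellular microbes, and the machinery that cuts proteins and loads the peptides onto class I molecules. In epithelia such as the stomach lining, many of these genes are transcribed at a low level without infection.

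The DTR lines had lost part of the transcripts that they are named for. Atp4b stood at 4784 and 4363 CPM in controls 1 and 2, 474, 640.4 and 683 in ATP4B-DTR, 3469, 2135 and 2783 in GIF-DTR, and 158, 468 and 243 in GIF/ATP4B-DTR. Gif stood at 702 and 2302 CPM in controls 1 and 2, 824, 331 and 755 in ATP4B-DTR, 65.5, 178 and 196 in GIF-DTR, and 218, 83.7 and 72.3 in GIF/ATP4B-DTR. Atp4b was thus lowest in ATP4B-DTR and GIF/ATP4B-DTR, and Gif was lower in every sample of GIF-DTR and GIF/ATP4B-DTR than in either control. In bulk tissue, fewer cells of a type and less RNA per cell cannot be told apart. Totals ranged from 20.7 to 27.9 M estimated counts per sample, and 3 counts, the smallest amount treated as seen, correspond to between 0.107 and 0.166 CPM, the count scaled to a common library size, counting error only. All CPM values carry TMM factors (trimmed mean of M-values), which adjust for library composition. Where values are listed for the 3 lines without names, ATP4B-DTR comes first, GIF-DTR next and GIF/ATP4B-DTR last. Y-linked genes were clearly detected in both controls, ATP4B-DTR 1 and GIF/ATP4B-DTR 1 to 3, and not in the other 5 samples, so that all GIF-DTR samples lacked them and the ATP4B-DTR samples were mixed and cannot all be from the same mouse.

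Promoter sequence is shown for 9 members, picked among those with a match before the gene's start. These stretches hold the letters through which interferon-activated factors are known to bind DNA. RefSeq promoter windows (GRCm38.p6, 250 bases before to 50 bases after a gene's start) were found for 39 of the 52 members. The core of the interferon-stimulated response element, GAAANNGAAA, was searched on both strands and occurred in 19 of those 39 members (48.7%) and in 3.99% of 27025 genes with a window. The core of the gamma-activated sequence, TTCNNNGAA, which reads the same on both strands, occurred in 10 of the 39 (25.6%) and in 9.55% of genes with a window. The first group below consists of antiviral effectors with 1 to 3 response-element cores, the second of a pair of oligoadenylate synthetases, and the third of an immunity-related GTPase and a transcription factor with a gamma-activated core. Each stretch is written 5′ to 3′ on the strand of its gene, and capitals mark the matched cores.
Isg15: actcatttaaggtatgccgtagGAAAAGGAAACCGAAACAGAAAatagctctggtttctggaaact
Ifit1: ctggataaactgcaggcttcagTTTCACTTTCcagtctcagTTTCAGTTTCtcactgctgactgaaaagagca
Ifit3: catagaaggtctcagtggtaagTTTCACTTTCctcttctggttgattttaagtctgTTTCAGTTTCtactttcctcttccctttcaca
Rsad2: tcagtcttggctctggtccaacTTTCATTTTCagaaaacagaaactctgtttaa
Bst2: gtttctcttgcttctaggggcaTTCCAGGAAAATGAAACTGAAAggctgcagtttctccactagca
Oas1a: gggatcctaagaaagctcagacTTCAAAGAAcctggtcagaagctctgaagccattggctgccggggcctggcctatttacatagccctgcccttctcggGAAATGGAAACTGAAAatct
Oas1g: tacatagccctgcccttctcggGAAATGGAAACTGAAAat
Igtp: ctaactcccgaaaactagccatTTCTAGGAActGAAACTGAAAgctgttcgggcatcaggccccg
Irf1: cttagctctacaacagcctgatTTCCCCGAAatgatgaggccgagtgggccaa

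The Isg15 stretch (chr4:156200853-156200918, minus strand) holds 3 overlapping response-element cores and lies between -100 and -35 from the gene's start. Ifit1 (chr19:34640763-34640835, plus strand) holds 2 separate cores, written here as the reverse complement. Ifit3 (chr19:34583351-34583438, plus strand) also holds 2, and the matching stretch of its neighbour Ifit3b (chr19:34607747-34607834, plus strand) has the same letters, with 0 differences. Rsad2 (chr12:26456541-26456594, minus strand) holds 1. Bst2 (chr8:71537565-71537630, minus strand) holds 2 overlapping cores, the first of which also overlaps 1 gamma-activated core. Oas1a (chr5:120907526-120907645, minus strand) and Oas1g (chr5:120887614-120887653, minus strand) each hold 2 overlapping cores directly before the start, and Oas1a holds 1 gamma-activated core further upstream. Igtp (chr11:58199489-58199553, plus strand) holds 1 of each core, and Irf1 (chr11:53769902-53769954, plus strand) holds 1 gamma-activated core. A match is a description of the letters, not evidence that a factor was bound.

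These genes differed widely between the 2 controls. Control 2 was below control 1 in all 52 members, against 64.7% of all genes tested. It was at least 2-fold below in 41 members (78.8%) against 3.75% of all genes, and at least 4-fold below in 22 (42.3%) against 1.75%. The ratio of control 1 to control 2 ranged from 1.31 to 16.9 over the members with a median of 3.47, while the median over all genes with counts in both controls was 1.10. Control 2 was the lowest of the 11 samples for 46 members, against 26.0% of all genes. The mean log2(CPM + 0.5) of the members was 5.12 and 3.35 in controls 1 and 2, 4.40, 4.96 and 5.40 in ATP4B-DTR, 5.48, 5.67 and 5.35 in GIF-DTR, and 4.68, 5.51 and 4.36 in GIF/ATP4B-DTR, while the mean over all genes tested stayed between 3.69 and 3.82. Control 1 therefore lay inside the range of the DTR samples and control 2 more than 1 log2 unit below the lowest of them.

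The samples within a line also kept an order. In ATP4B-DTR, sample 1 was the lowest for 47 members (31.6% of all genes) and sample 3 the highest for 47 (33.6%). In GIF/ATP4B-DTR, sample 2 was the highest for 50 members (38.8% of all genes) and sample 3 the lowest for 42 (29.2%). GIF-DTR showed less order, with sample 2 highest for 30 members (31.2% of all genes) and sample 3 lowest for 26 (29.3%). The group mean was highest in GIF-DTR for 48 of the 52 members, against 15.7% of all genes. The numbers 1 to 3 only name the samples of a line.

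**Figure D1:**
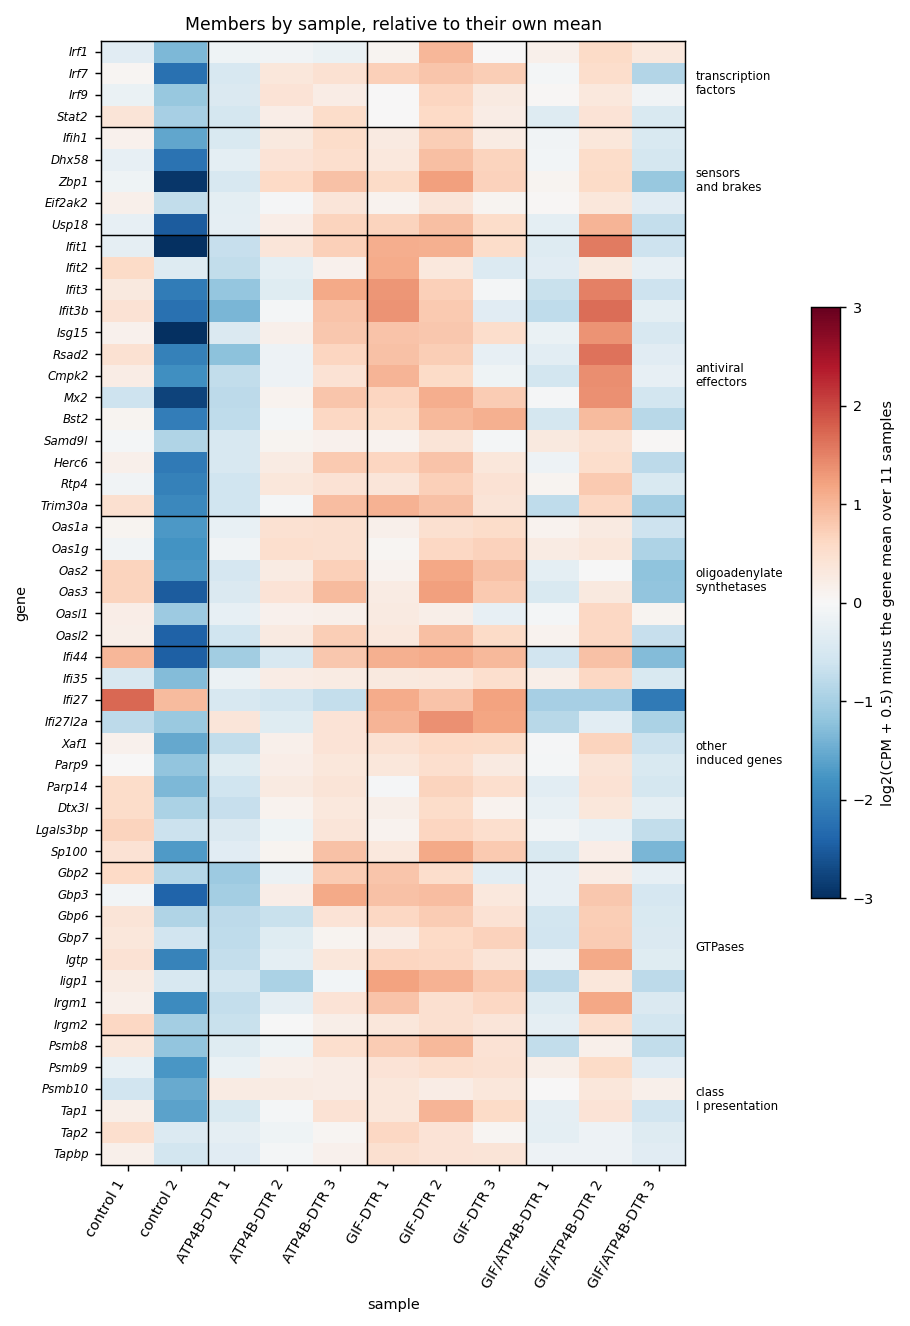
Heat map of the 52 members (rows, grouped by role) in the 11 samples (columns); the colour is log2(CPM + 0.5) minus the gene's mean over the 11 samples. Control 2 is blue for nearly every gene and the lowest of the 11 samples for 46, ATP4B-DTR 1 and GIF/ATP4B-DTR 3 are pale blue, and the GIF-DTR columns and GIF/ATP4B-DTR 2 are red, with Ifi27 as the clear exception.

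Few members passed the test against control. With edgeR's quasi-likelihood test (adjusted p under 0.05), 3 members were higher and 1 lower in ATP4B-DTR than in control, against 12.2% and 9.39% of all genes tested. In GIF-DTR 5 were higher and 0 lower, against 9.97% and 6.82%. In GIF/ATP4B-DTR 3 were higher and 1 lower, against 18.2% and 15.4%. As shares of 52, these counts were below those of all genes or near them, while the median log2 fold changes of the members were 0.52, 1.05 and 0.55 in the 3 lines in order, beside -0.02, -0.01 and -0.04 over all genes. The fold change was above 0 for 41, 51 and 38 of the 52 members, respectively. Every GIF-DTR sample was above both controls for 30 members, against 25.0% of all genes tested. The same held in every ATP4B-DTR sample for 5 members (25.3% of all genes) and in every GIF/ATP4B-DTR sample for 6 (29.1%). Scaling by total counts without TMM factors moved the median of all genes to 0.30, 0.35 and 0.28 and that of the members to 0.88, 1.44 and 0.90, so the members' medians stayed above those of all genes.

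The answer depended on which control was used. Against control 2 alone, 20, 26 and 24 members were higher in the 3 lines in order (8.43%, 5.2% and 15.6% of all genes tested), with member medians of 1.80, 2.33 and 1.72, and 1, 0 and 1 members were lower (5.37%, 2.11% and 12.7%). Against control 1 alone, 1, 2 and 1 members were higher (3.51%, 2.72% and 8.91% of all genes) and 1, 0 and 3 lower (5.0%, 2.92% and 9.68%), with medians of -0.13, 0.36 and -0.07. In these fits the lone control is assumed to vary like the other groups. The members still called higher against control 1 alone were Psmb10 in all 3 lines and Ifi27l2a in GIF-DTR. Control 1 lay below every GIF-DTR sample for 30 members (36.0% of all genes), and above every ATP4B-DTR sample for 13 (35.5%) and every GIF/ATP4B-DTR sample for 14 (38.0%).

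**Figure D2:**
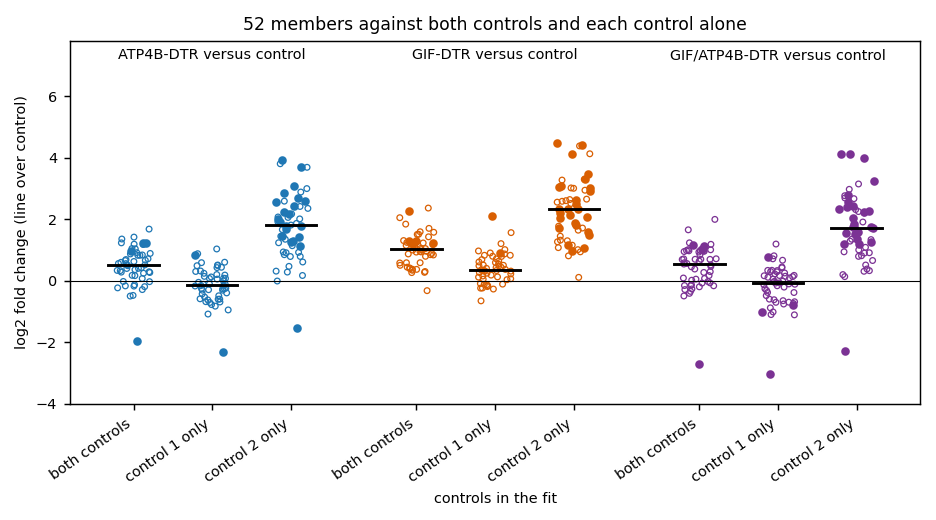
Log2 fold change of each of the 52 members (points; filled where edgeR's adjusted p was under 0.05) in each DTR line, fitted with both controls or with 1 of them; horizontal bars are medians. Medians sit at 0.52, 1.05 and 0.55 with both controls, at -0.13, 0.36 and -0.07 with control 1 only, and at 1.80, 2.33 and 1.72 with control 2 only.

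Among the 4 transcription factors of the response, only Irf1 passed the test (9.97% and 18.2% of all genes were called higher in the 2 comparisons concerned). Irf1, a factor strongly induced by type II interferon, stood at 31.3 and 15.4 CPM in controls 1 and 2, 36.8, 37.0 and 34.6 in ATP4B-DTR, 42.4, 80.1 and 40.1 in GIF-DTR, and 44.8, 59.8 and 49.9 in GIF/ATP4B-DTR. All 9 line samples were above both controls, with GIF-DTR 2 the highest. Its log2 fold change was 1.21 ± 0.34 (SE, adjusted p = 0.0364) in GIF-DTR, 1.14 ± 0.34 (SE, adjusted p = 0.0259) in GIF/ATP4B-DTR and 0.63 ± 0.34 (SE, adjusted p = 0.215) in ATP4B-DTR (edgeR). Without control 2 these became 0.79 (adjusted p = 0.19), 0.71 (adjusted p = 0.186) and 0.20 (adjusted p = 0.747). The GIF-DTR call was also lost without GIF-DTR 2, ATP4B-DTR 2, ATP4B-DTR 3 or GIF/ATP4B-DTR 3, and the GIF/ATP4B-DTR call without its own sample 2 or 3 (adjusted p from 0.0501 to 0.0761, edgeR). Both were lost without a filter on low counts (adjusted p = 0.0691 and 0.0567, edgeR). Irf7, the factor that amplifies type I interferon production, stood at 98.7 and 19.4 CPM in controls 1 and 2, 67.3, 119 and 129 in ATP4B-DTR, 155, 167 and 156 in GIF-DTR, and 90.0, 136 and 50.9 in GIF/ATP4B-DTR. The GIF-DTR samples were all higher than control 1, but ATP4B-DTR and GIF/ATP4B-DTR overlapped it. Its log2 fold changes were 0.83 ± 0.63 (SE, adjusted p = 0.387), 1.43 ± 0.64 (SE, adjusted p = 0.167) and 0.64 ± 0.62 (SE, adjusted p = 0.455) in the 3 lines in order (edgeR). Irf9 and Stat2, factors of the response to type I interferon, were at 33.9 and 17.6 CPM and at 75.7 and 29.0 CPM in controls 1 and 2, and between 28.8 and 61.5 CPM and between 39.9 and 87.6 CPM over the DTR samples. Irf9 had log2 fold changes between 0.70 and 0.94 and Stat2 between 0.05 and 0.44, and neither was called.

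Of the 5 sensors and brakes 0 were called in any comparison, which at 12.2%, 9.97% and 18.2% of all genes called higher against control says nothing particular about so small a group. Zbp1, a sensor of Z-form nucleic acid that can trigger cell death, differed most between the controls of this group, at 14.5 and 1.66 CPM. Its DTR samples ran from 6.98 in GIF/ATP4B-DTR 3 to 38.1 in GIF-DTR 2. Ifih1 (MDA5) and Dhx58 (LGP2), cytoplasmic sensors of double-stranded RNA, stood at 67.9 and 20.7 CPM and 20.8 and 4.88 CPM in the controls and at 84.8 ± 17.1 and 39.0 ± 7.66 CPM (SD, n = 3) in GIF-DTR. Usp18, a protease that removes ISG15 and damps receptor signalling, stood at 33.8 and 6.71 CPM in controls 1 and 2 and ran from 24.4 to 81.9 in the lines. Eif2ak2 (PKR), which stops translation on sensing double-stranded RNA, stood at 73.8 and 39.6 CPM in controls 1 and 2, 54.4, 65.2 and 85.6 in ATP4B-DTR, 71.3, 86.0 and 70.2 in GIF-DTR, and 67.9, 85.2 and 52.6 in GIF/ATP4B-DTR. It overlapped control 1 in every line, and its log2 fold changes were 0.27 ± 0.28 (SE, adjusted p = 0.529), 0.42 ± 0.28 (SE, adjusted p = 0.35) and 0.27 ± 0.28 (SE, adjusted p = 0.477) in the 3 lines in order (edgeR).

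Among the 13 antiviral effectors 0 were called in any comparison, beside 12.2%, 9.97% and 18.2% of all genes called higher against control and at most 2.19% called in a direction between lines. Their mean log2(CPM + 0.5) was 4.67 in control 1 and 2.43 in control 2. Isg15, a ubiquitin-like protein attached to other proteins, whose promoter holds 3 cores, stood at 54.3 and 3.93 CPM in controls 1 and 2, 36.9, 55.6 and 88.0 in ATP4B-DTR, 90.2, 87.8 and 71.7 in GIF-DTR, and 43.8, 127 and 35.8 in GIF/ATP4B-DTR. Control 2 was far below all other samples, and control 1 lay among the ATP4B-DTR and GIF/ATP4B-DTR samples. Ifit1, which binds viral RNA lacking a host cap, stood at 49.4 and 5.49 CPM in controls 1 and 2, 36.8, 77.0 and 98.1 in ATP4B-DTR, 129, 126 and 87.6 in GIF-DTR, and 45.4, 177 and 39.0 in GIF/ATP4B-DTR, in the same pattern. The samples of GIF/ATP4B-DTR lay far apart: sample 2 held 127 CPM of Isg15 and 177 CPM of Ifit1 while sample 3 held 35.8 and 39.0. Rsad2 (viperin) and its neighbour Cmpk2, both enzymes of antiviral nucleotide metabolism, ran from 6.10 to 82.2 and from 5.10 to 52.6 CPM, each lowest in control 2 and highest in GIF/ATP4B-DTR 2. Ifit3 and Ifit3b, which share promoter letters and whose estimated counts were fractional in all 11 samples, so that the division of reads between them is uncertain, ran from 4.10 to 55.5 and from 1.88 to 35.3 CPM, again from control 2 to GIF/ATP4B-DTR 2. Mx2, a dynamin-like GTPase annotated as a polymorphic pseudogene, went from 0.554 CPM in control 2 to 18.2 in GIF/ATP4B-DTR 2.

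Of the other effectors, Samd9l and Ifit2 differed least between samples in relative terms. Samd9l, a regulator of translation and endosomal traffic, was the most abundant effector in CPM, at 196 and 109 CPM in controls 1 and 2, 147, 218 and 223 in ATP4B-DTR, 221, 269.7 and 197 in GIF-DTR, and 253, 279.2 and 210.0 in GIF/ATP4B-DTR. Its log2 fold changes were 0.36 ± 0.26 (SE, adjusted p = 0.357), 0.59 ± 0.26 (SE, adjusted p = 0.154) and 0.70 ± 0.27 (SE, adjusted p = 0.0628) in the 3 lines in order (edgeR), and only the ATP4B-DTR samples overlapped control 1. Bst2 (tetherin), which holds budding virus on the cell surface, had control levels of 42.5 and 9.14 CPM and stood at 73.9 ± 13.3 CPM (SD, n = 3) in GIF-DTR. Herc6, the ligase that attaches ISG15 in the mouse, Rtp4, an inducible antiviral protein, and Trim30a, a tripartite-motif protein, had control levels of 18.5 and 3.44 CPM, 31.4 and 7.98 CPM and 15.8 and 2.60 CPM, and GIF-DTR levels of 25.9 ± 4.70, 48.9 ± 6.38 and 20.04 ± 4.66 CPM (SD, n = 3). Ifit2 was the lowest of its family, between 1.63 and 7.28 CPM, with controls at 4.80 and 2.22 CPM.

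The 6 oligoadenylate synthetase genes, most of whose products make the second messenger that activates RNase L, gave 0 calls, a count near the background for 6 genes (12.2%, 9.97% and 18.2% of all genes called higher against control). Oasl1, a family member without synthetase activity, stood at 222 and 91.2 CPM in controls 1 and 2, 164, 213 and 217 in ATP4B-DTR, 233, 219 and 165 in GIF-DTR, and 187, 301 and 205 in GIF/ATP4B-DTR. Control 1 was inside the range of GIF-DTR and GIF/ATP4B-DTR and above all 3 ATP4B-DTR samples, and the log2 fold changes were 0.34 ± 0.34 (SE, adjusted p = 0.51), 0.39 ± 0.34 (SE, adjusted p = 0.476) and 0.56 ± 0.34 (SE, adjusted p = 0.224) (edgeR, same order of lines). Oas3 and Oasl2 had the widest ratios between controls here, at 37.7 and 3.77 CPM and 116 and 18.7 CPM. Among the line samples Oas2 and Oas3 were lowest in GIF/ATP4B-DTR 3, at 24.6 and 10.1 CPM, and highest in GIF-DTR 2, at 130.1 and 56.5. Oas1a and Oas1g, whose estimated counts were fractional in every sample, had controls of 111 and 31.3 CPM and 46.0 and 13.9 CPM and the same lowest and highest samples, control 2 and GIF-DTR 3.

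The guanylate-binding proteins and immunity-related GTPases gave 0 calls among 8 members, where 12.2%, 9.97% and 18.2% of all genes were called higher against control. Irgm1, a regulator of the vacuole-attacking GTPases, stood at 42.1 and 9.86 CPM in controls 1 and 2, 22.6, 31.3 and 49.8 in ATP4B-DTR, 68.3, 53.0 and 58.3 in GIF-DTR, and 28.8, 84.2 and 27.8 in GIF/ATP4B-DTR. The GIF-DTR samples were all above control 1, while ATP4B-DTR and GIF/ATP4B-DTR overlapped it, and the log2 fold changes were 0.41 ± 0.67 (SE, adjusted p = 0.704), 1.20 ± 0.69 (SE, adjusted p = 0.278) and 0.84 ± 0.68 (SE, adjusted p = 0.367) (edgeR, same order). Iigp1 was low and stood at 5.25 and 2.99 CPM in controls 1 and 2, 2.84, 2.02 and 4.06 in ATP4B-DTR, 10.7, 9.48 and 7.85 in GIF-DTR, and 2.34, 5.68 and 2.31 in GIF/ATP4B-DTR, so that the 3 GIF-DTR samples were above all others. Its difference was 1.65 ± 0.40 (SE, adjusted p = 0.138) against ATP4B-DTR and -1.44 ± 0.40 (SE, adjusted p = 0.0932) for GIF/ATP4B-DTR against GIF-DTR (edgeR), and neither was called. The remaining 6 had log2 fold changes between -0.28 and 1.58 against control. Among these, Gbp3 had controls of 22.8 and 4.21 CPM and Igtp 47.2 and 8.31 CPM. Igtp and Irgm2 overlap on the plus strand of chromosome 11, so their reads may be divided between them. Every GIF-DTR sample was above every ATP4B-DTR sample for 6 of the 8 GTPases, against 9.27% of all genes tested. The same held for 2 of 4 transcription factors, 5 of 10 other induced genes and 2 of 6 class I presentation genes. It held for 0 of 13 antiviral effectors, 0 of 5 sensors and brakes and 0 of 6 oligoadenylate synthetases.

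Of the 10 other induced genes, Ifi35, Ifi27l2a and Ifi27 were called, giving 2, 2 and 1 higher in the 3 lines in order (12.2%, 9.97% and 18.2% of all genes) and 1, 0 and 1 lower (9.39%, 6.82% and 15.4%). Ifi35, a leucine-zipper protein (chr11:101448407-101458698, plus strand), stood at 35.3 and 19.8 CPM in controls 1 and 2, 43.9, 58.1 and 59.3 in ATP4B-DTR, 61.1, 62.3 and 70.6 in GIF-DTR, and 56.0, 76.7 and 36.1 in GIF/ATP4B-DTR. Every line sample was above both controls, with log2 fold changes of 0.96 ± 0.31 (SE, adjusted p = 0.0488), 1.23 ± 0.31 (SE, adjusted p = 0.0244) and 1.03 ± 0.31 (SE, adjusted p = 0.0267) in the 3 lines in order (edgeR). Without control 2 none of these was called, at 0.60 (adjusted p = 0.294), 0.87 (adjusted p = 0.148) and 0.67 (adjusted p = 0.203). The ATP4B-DTR call was also lost without any 1 of its own samples, any 1 GIF-DTR sample or GIF/ATP4B-DTR 1 (adjusted p from 0.058 to 0.111, edgeR). The GIF-DTR call was lost without GIF-DTR 3 (0.0708), and the GIF/ATP4B-DTR call without its sample 1 (0.0524) or 2 (0.0787). The gene with the highest CPM of the 52, and also the highest per kilobase of exon (118 on average), was Lgals3bp, a secreted glycoprotein that binds galectins. It stood at 509 and 205 CPM in controls 1 and 2, 237, 293 and 410.2 in ATP4B-DTR, 343, 496 and 457 in GIF-DTR, and 296, 274 and 192 in GIF/ATP4B-DTR. Control 1 was above every other sample, and the log2 fold changes were -0.19 ± 0.36 (SE, adjusted p = 0.74), 0.28 ± 0.36 (SE, adjusted p = 0.66) and -0.49 ± 0.36 (SE, adjusted p = 0.31) (edgeR, order as before). The sign of each turned in some fit. The ATP4B-DTR value was 0.16 under total-count scaling and 0.61 without control 1. The GIF-DTR value was -0.24 without control 2 and -0.19 with a Y-linked index as covariate. The GIF/ATP4B-DTR value was 0.31 without control 1. The nuclear-body protein Sp100, the apoptosis factor Xaf1, the ADP-ribosyltransferases Parp9 and Parp14, the ligase Dtx3l that pairs with Parp9, and Ifi44 gave no call. Ifi44 had the widest ratio between the controls of all 52, at 14.05 and 0.831 CPM. Parp9 and Dtx3l overlap at their annotated starts on opposite strands of chromosome 16.

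Ifi27 and Ifi27l2a are neighbours on chromosome 12 (chr12:103434211-103440239, plus strand and chr12:103442167-103443680, minus strand), belong to 1 family of small mitochondrial and membrane proteins, and went in different directions in ATP4B-DTR. Gene positions are from the GENCODE annotation (mm10). Ifi27 stood at 203 and 120.3 CPM in controls 1 and 2, 44.2, 42.1 and 37.6 in ATP4B-DTR, 135, 111 and 143 in GIF-DTR, and 30.6, 30.5 and 13.7 in GIF/ATP4B-DTR. The 6 samples of ATP4B-DTR and GIF/ATP4B-DTR were all below the 5 samples of control and GIF-DTR. Its log2 fold change was -1.97 ± 0.31 (SE, adjusted p = 0.00222) in ATP4B-DTR and -2.70 ± 0.32 (SE, adjusted p = 0.000217) in GIF/ATP4B-DTR, and -0.32 ± 0.31 (SE, adjusted p = 0.535) in GIF-DTR (edgeR). No other member was called lower against control, and the calls held without any 1 sample and with either control alone, between -2.30 and -1.54 in ATP4B-DTR and between -3.03 and -2.27 in GIF/ATP4B-DTR. By group, the parietal cell markers followed a like order. Their summed level was 17807 and 16521 CPM in controls 1 and 2, 3579, 3695 and 4976 in ATP4B-DTR, 10078, 7935 and 9184 in GIF-DTR, and 1709, 2947 and 2129 in GIF/ATP4B-DTR. Within a line the order was not shared: ATP4B-DTR 3 had the highest parietal sum and the lowest Ifi27 of its line. Endothelial markers had a like order by group too, with median log2 fold changes of -1.72, -0.42 and -2.41 in the 3 lines in order. The medians of the parietal markers were -1.26, -0.45 and -2.23. By sample, endothelial markers summed to 19.3 and 107 CPM in controls 1 and 2, with control 1 below every GIF-DTR sample. Whether the share of parietal or other cells had a part in the Ifi27 result was not tested.

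Ifi27l2a was low and stood at 4.22 and 3.21 CPM in controls 1 and 2, 9.96, 5.75 and 10.3 in ATP4B-DTR, 15.9, 20.4 and 17.8 in GIF-DTR, and 4.07, 6.03 and 3.67 in GIF/ATP4B-DTR. The GIF-DTR samples were above all 8 others, and the GIF/ATP4B-DTR samples overlapped the controls. Its log2 fold change was 2.28 ± 0.32 (SE, adjusted p = 0.00174) in GIF-DTR, 1.22 ± 0.30 (SE, adjusted p = 0.0161) in ATP4B-DTR and 0.30 ± 0.30 (SE, adjusted p = 0.463) in GIF/ATP4B-DTR (edgeR). Against control 1 alone it was 2.09 (adjusted p = 0.0246) in GIF-DTR and 1.03 (adjusted p = 0.122) in ATP4B-DTR. The ATP4B-DTR call was also lost without ATP4B-DTR 1 (adjusted p = 0.0536, edgeR), while the GIF-DTR call held without any 1 sample. The strands of the neighbours are opposite, and neither had fractional counts in any sample.

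Among the 6 members of class I presentation, 2 of the 3 immunoproteasome subunits were called, which gave 1, 2 and 1 higher of 6 in the 3 lines in order, beside 12.2%, 9.97% and 18.2% of all genes. These subunits replace the constitutive catalytic ones after interferon exposure and change which peptides are cut. Psmb10 (chr8:105935735-105938444, minus strand) stood at 18.9 and 9.70 CPM in controls 1 and 2, 33.9, 33.7 and 33.1 in ATP4B-DTR, 36.1, 33.3 and 36.3 in GIF-DTR, and 28.9, 36.1 and 31.7 in GIF/ATP4B-DTR. The 9 line samples lay between 28.9 and 36.3, all above both controls. Its log2 fold changes were 1.23 ± 0.23 (SE, adjusted p = 0.00355), 1.30 ± 0.23 (SE, adjusted p = 0.00433) and 1.17 ± 0.22 (SE, adjusted p = 0.00241) in the 3 lines in order (edgeR). Against control 1 alone they were 0.83 (adjusted p = 0.0184), 0.90 (adjusted p = 0.0228) and 0.77 (adjusted p = 0.0128), so Psmb10 was called in every line with either control. Psmb9 stood at 17.4 and 5.71 CPM in controls 1 and 2, 17.8, 22.7 and 23.97 in ATP4B-DTR, 27.6, 29.5 and 28.5 in GIF-DTR, and 23.3, 30.6 and 16.2 in GIF/ATP4B-DTR. The 3 GIF-DTR samples were close together and above both controls. It was called in GIF-DTR, at 1.30 ± 0.40 (SE, adjusted p = 0.0494), and not in ATP4B-DTR, at 0.89 ± 0.39 (SE, adjusted p = 0.136), or GIF/ATP4B-DTR, at 1.01 ± 0.39 (SE, adjusted p = 0.0724) (edgeR). Without control 2 its GIF-DTR value was 0.71 (adjusted p = 0.174), and the call was also lost without any 1 sample of ATP4B-DTR or GIF-DTR or without GIF/ATP4B-DTR 1 (adjusted p from 0.0572 to 0.106, edgeR). Psmb8 was not called, with controls at 12.3 and 3.93 CPM and log2 fold changes of 0.29, 1.00 and -0.16.

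Tapbp (tapasin), which bridges the peptide pump and class I molecules, stood at 135 and 82.8 CPM in controls 1 and 2, 95.8, 116 and 131 in ATP4B-DTR, 168, 162 and 158 in GIF-DTR, and 108, 109 and 94.4 in GIF/ATP4B-DTR. The 3 GIF-DTR samples were above all others, and the ATP4B-DTR and GIF/ATP4B-DTR samples were below control 1. Its log2 fold changes were 0.07 ± 0.20 (SE, adjusted p = 0.815), 0.58 ± 0.20 (SE, adjusted p = 0.0663) and -0.07 ± 0.19 (SE, adjusted p = 0.811) (edgeR, same order). The first turned negative without control 2 (-0.24), without ATP4B-DTR 3 (-0.04) and with a Y-linked index as covariate (-0.16). The third turned positive under total-count scaling (0.27) and without control 1 (0.33). Tap1 and Tap2, the subunits of the peptide pump, had controls of 40.0 and 11.3 CPM and 31.8 and 16.7 CPM, and GIF-DTR levels of 57.1 ± 14.1 and 29.2 ± 5.71 CPM (SD, n = 3). The log2 fold changes of Tap1 were 0.49 ± 0.51 (SE, adjusted p = 0.529), 1.15 ± 0.52 (SE, adjusted p = 0.164) and 0.38 ± 0.51 (SE, adjusted p = 0.585) (edgeR, same order), and those of Tap2 were -0.23 ± 0.25 (SE, adjusted p = 0.542), 0.27 ± 0.25 (SE, adjusted p = 0.51) and -0.41 ± 0.25 (SE, adjusted p = 0.222) (edgeR), so neither gene was called. Psmb9 and Tap1 lie head to head on chromosome 17 and their annotated starts overlap. The library kit keeps strand, but whether counting used it is not given in the sources used here.

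Among the 14 constitutive proteasome subunits, which form the standing proteolytic core, 10, 7 and 13 were higher in the 3 lines in order (12.2%, 9.97% and 18.2% of all genes tested), with 0 lower and medians of 0.67, 0.54 and 0.82. Their mean log2(CPM + 0.5) was 6.54 and 6.25 in controls 1 and 2, 7.07, 7.13 and 6.92 in ATP4B-DTR, 6.91, 6.79 and 6.98 in GIF-DTR, and 7.10, 7.45 and 7.13 in GIF/ATP4B-DTR, so both controls were below every line sample. Psmb5, the subunit that Psmb8 replaces, stood at 104 and 79.4 CPM in controls 1 and 2, 165, 171 and 146 in ATP4B-DTR, 148, 142 and 164 in GIF-DTR, and 161, 218 and 169 in GIF/ATP4B-DTR. Against control 1 alone the counts were 1, 0 and 8, with medians of 0.51, 0.41 and 0.69, and against control 2 alone 9, 4 and 14, where all genes gave 3.51%, 2.72% and 8.91% (control 1) and 8.43%, 5.2% and 15.6% (control 2). With a Y-linked index as covariate they were 6, 0 and 13, with medians of 0.66, 0.53 and 0.82, where 7.86%, 2.38% and 17.5% of all genes were called higher. The activator subunits Psme1 and Psme2, induced by type II interferon, and the trimming peptidase Erap1 belong to a list of 7 loading and trimming genes, in which 2, 4 and 3 were higher and 0 lower, against the same 12.2%, 9.97% and 18.2% of all genes. Erap1 stood at 29.1 and 28.2 CPM in controls 1 and 2, 50.4, 49.1 and 47.8 in ATP4B-DTR, 48.8, 41.7 and 50.9 in GIF-DTR, and 44.0, 46.4 and 38.3 in GIF/ATP4B-DTR, with log2 fold changes of 0.78 ± 0.13 (SE, adjusted p = 0.00241), 0.72 ± 0.13 (SE, adjusted p = 0.00519) and 0.58 ± 0.13 (SE, adjusted p = 0.00543) (edgeR). Psme2 was called in the 3 lines at 0.65, 0.84 and 0.71, Psme1 in GIF-DTR at 0.72, and the tapasin-related Tapbpl in GIF-DTR and GIF/ATP4B-DTR at 0.69 and 0.77. These calls of Psme1, Psme2 and Tapbpl were lost against control 1 alone, and that of Tapbpl in GIF-DTR against control 2 alone. The Erap1 call in GIF-DTR was lost with the Y-linked covariate, at 0.75 (adjusted p = 0.0882) (edgeR).

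**Figure D3:**
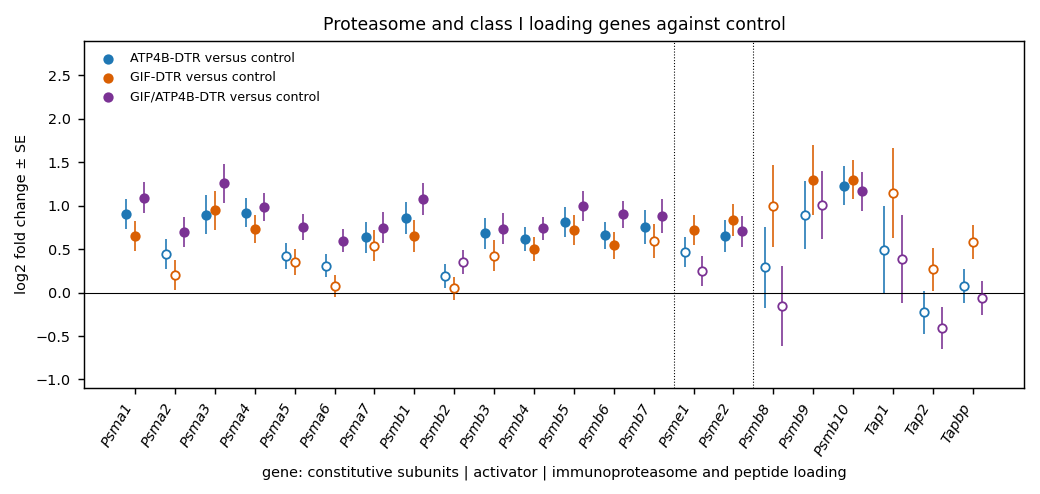
Log2 fold change ± SE of each DTR line against control for 14 constitutive proteasome subunits, the activator subunits and 6 class I members; filled points passed edgeR's test at an adjusted p under 0.05. The constitutive subunits are called in 10, 7 and 13 cases with small errors, and Psmb10 is the class I member called in all 3 lines.

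Class I heavy chains and the light chain B2m, which carry the peptides to the surface, had 16 tested genes. Against control, 0, 2 and 0 of them were higher in the 3 lines in order (12.2%, 9.97% and 18.2% of all genes tested) and 0, 1 and 1 lower (9.39%, 6.82% and 15.4%), so the GIF-DTR counts were near the background and the others below it. In GIF-DTR, H2-Q4 and H2-T23 were higher, at 1.23 and 1.14, and Mr1, which presents vitamin metabolites to T cells, was lower, at -0.88. Mr1 was also lower in GIF/ATP4B-DTR, at -0.83, and no gene of this list was called in ATP4B-DTR. The GIF-DTR calls of H2-Q4 and H2-T23 each held in 10 of 20 alternatives (edgeR or DESeq2, highest adjusted p = 0.555 and 0.563), and both were lost without control 2, without a filter and with only the 2 groups fitted. The Mr1 call held in 14 of 20 in GIF-DTR and 17 of 20 in GIF/ATP4B-DTR, and was lost in both without control 2 and under total-count scaling, and in GIF-DTR without control 1. H2-D1, a classical heavy chain, stood at 799 and 398 CPM in controls 1 and 2, 608, 814 and 741 in ATP4B-DTR, 696, 1198 and 829 in GIF-DTR, and 766, 727 and 645 in GIF/ATP4B-DTR. Control 2 was the lowest sample, as for the members, and GIF-DTR 2 the highest. Heavy-chain genes are near copies of each other, so their individual counts are uncertain.

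The ligands were hardly detectable. Of 21 interferon genes only Ifne, an interferon of epithelia, passed the filter on low counts, and the summed level of the 21 lay between 0.111 CPM in control 2 and 1.24 in GIF/ATP4B-DTR 2. Ifne was at 0.269 and 0.111 CPM in controls 1 and 2, 0.279, 1.01 and 0.455 in ATP4B-DTR, 0.189, 0.236 and 0.0793 in GIF-DTR, and 0.403, 0.769 and 0.392 in GIF/ATP4B-DTR, near the level of 3 counts in several samples, and was not called. The 6 receptor chains were present in every sample. Ifngr1 and Il10rb were lower in ATP4B-DTR (2 of 6, beside 9.39% of all genes called lower), at -0.58 and -0.52 on the log2 scale. Neither was called without control 1 or under total-count scaling, nor was Il10rb without control 2. The Ifngr1 call was also lost without any 1 ATP4B-DTR sample. It held in 12 of 20 alternatives and the Il10rb call in 15. Among 14 signal transducers and regulators, calls were 2 higher and 1 lower in ATP4B-DTR, 1 and 0 in GIF-DTR, and 1 and 1 in GIF/ATP4B-DTR. Of all genes tested, 12.2%, 9.97% and 18.2% were called higher and 9.39%, 6.82% and 15.4% lower, so these shares were near the background or below it. The phosphatase Ptpn2 and the inhibitor Socs1, both of which switch off receptor signalling, were the genes raised in ATP4B-DTR. Ptpn2 stood at 19.6 and 18.0 CPM in controls 1 and 2, 128, 77.0 and 42.1 in ATP4B-DTR, 48.7, 40.3 and 40.7 in GIF-DTR, and 58.1, 72.9 and 50.7 in GIF/ATP4B-DTR, with log2 fold changes of 2.13 ± 0.39 (SE, adjusted p = 0.0046) in ATP4B-DTR and 1.69 ± 0.38 (SE, adjusted p = 0.00739) in GIF/ATP4B-DTR (edgeR). Socs1 was at 1.79 in ATP4B-DTR. Irf5 was higher in GIF-DTR, at 1.45, and the kinase Jak1 was lower in both lines with ATP4B-DTR, at -0.50 and -0.55. Of these, the calls of Socs1 and Jak1 in ATP4B-DTR and of Irf5 in GIF-DTR were lost with either control left out. Both Jak1 calls were lost under total-count scaling, and that in GIF/ATP4B-DTR also without control 1. The Ptpn2 call in GIF/ATP4B-DTR was lost without control 2. The Socs1 call held in 9 of 20 alternatives, the Irf5 call in 13, and the Jak1 calls in 14 (ATP4B-DTR) and 18 (GIF/ATP4B-DTR).

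Among 12 tested genes of nucleic acid sensing, Cgas, the cytoplasmic DNA sensor, was higher in all 3 lines. The list gave 1, 2 and 2 higher and 1, 2 and 2 lower, against 12.2%, 9.97% and 18.2% of all genes higher and 9.39%, 6.82% and 15.4% lower. Cgas stood at 1.35 and 1.27 CPM in controls 1 and 2, 4.14, 3.90 and 6.42 in ATP4B-DTR, 3.78, 5.98 and 6.90 in GIF-DTR, and 4.96, 8.38 and 5.34 in GIF/ATP4B-DTR, with both controls below every line sample and nearly equal to each other. Its log2 fold changes were 1.87 ± 0.39 (SE, adjusted p = 0.00658), 2.08 ± 0.39 (SE, adjusted p = 0.00637) and 2.24 ± 0.39 (SE, adjusted p = 0.00143) (edgeR). Ddx58 (RIG-I) was higher in GIF-DTR at 1.34 and the kinase Ikbke in GIF/ATP4B-DTR at 0.79. The adaptor Mavs was lower in the 3 lines, at -0.46, -0.65 and -0.64, and kept its sign but was called in no line under total-count scaling. Its ATP4B-DTR call was also lost without control 1. The adaptor Ticam1 was lower in GIF-DTR and GIF/ATP4B-DTR, at -0.60 and -0.53. The Ticam1 calls were lost under total-count scaling and without control 1. Leaving out control 2 ended the calls of Ddx58, of Ikbke and of Cgas in ATP4B-DTR. With a Y-linked index as covariate Cgas in GIF-DTR was at 1.81 (adjusted p = 0.124) and was not called (edgeR), and the Ddx58 call held in 11 of 20 alternatives.

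A further 49 tested interferon-induced genes outside the 52 gave 3 higher and 0 lower calls in ATP4B-DTR, 6 and 0 in GIF-DTR, and 6 and 1 in GIF/ATP4B-DTR. The shares of all genes tested were 12.2%, 9.97% and 18.2% higher and 9.39%, 6.82% and 15.4% lower, so these counts too were near the background or below it. Their median log2 fold changes were 0.19, 0.97 and 0.34, beside -0.02, -0.01 and -0.04 over all genes. Against control 1 alone the higher calls were 1, 2 and 5, against 3.51%, 2.72% and 8.91% of all genes, with medians of 0.29, 0.77 and 0.31. Against control 2 alone they were 9, 12 and 14, beside 8.43%, 5.2% and 15.6%, with medians of 0.74, 1.12 and 0.94. The chemokine Cxcl10, which draws T cells and NK cells, was at 0.494 and 1.16 CPM in controls 1 and 2, 12.1, 10.6 and 14.2 in ATP4B-DTR, 33.2, 17.4 and 14.6 in GIF-DTR, and 8.31, 53.4 and 29.9 in GIF/ATP4B-DTR. Unlike most members it was low in both controls, and every line sample was far above both. Its log2 fold changes were 3.92 ± 0.88 (SE, adjusted p = 0.0143), 4.74 ± 0.89 (SE, adjusted p = 0.00998) and 5.23 ± 0.90 (SE, adjusted p = 0.00253) (edgeR). The calls in ATP4B-DTR and GIF-DTR were lost with either control alone, where edgeR's adjusted p ran from 0.0511 to 0.0849. The Y-linked covariate ended the GIF-DTR calls of Cxcl10, at 4.61 (adjusted p = 0.0949), and of Slfn9, at 1.73 (adjusted p = 0.0923) (edgeR). The related Cxcl11 was called in GIF-DTR and GIF/ATP4B-DTR, from 0.0449 CPM and 0 in the controls to at most 5.35, and both calls were lost with either control alone. Slfn9, of the schlafen family, and Pnpt1, a mitochondrial RNA-degrading enzyme, were higher in all 3 lines, at 1.91, 1.89 and 2.10 and at 1.01, 0.99 and 1.36. Isg20, an exonuclease, and Nmi, the binding partner of Ifi35, were higher in GIF-DTR and GIF/ATP4B-DTR, and Sp140, of the Sp100 family, was lower in GIF/ATP4B-DTR. Without control 2 the calls of Nmi, Isg20 and Sp140 were lost, and so were those of Pnpt1 in ATP4B-DTR and GIF-DTR.

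**Figure D4:**
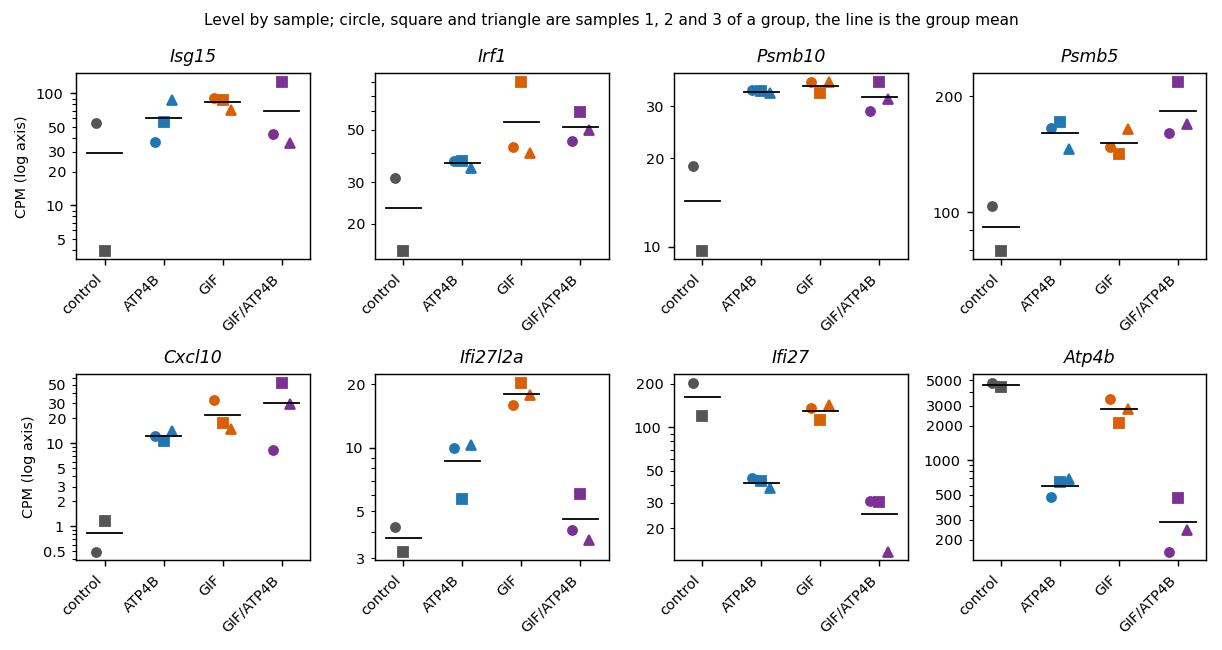
Level of 8 genes in each sample on a log axis of CPM, with group means as bars. Isg15 is low in control 2 only; Psmb10, Psmb5 and Cxcl10 are low in both controls; Ifi27 follows the order of Atp4b, with ATP4B-DTR and GIF/ATP4B-DTR low.

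The lines were also set against each other, which leaves the controls out of the contrast. All 52 members had higher fitted levels in GIF-DTR than in ATP4B-DTR, with a median log2 difference of 0.50 beside 0.01 over all genes. The members moved together between samples, so these are not 52 separate observations. Their mean log2(CPM + 0.5) overlapped between the lines, at 5.40 in ATP4B-DTR 3 and 5.35 in GIF-DTR 3. Ifi27 alone passed edgeR's test (1 higher and 0 lower, against 0.403% and 0.0873% of all genes), at 1.65 ± 0.29 (SE, adjusted p = 0.0364). That call was lost without any 1 of the 6 samples compared or without GIF/ATP4B-DTR 2 (adjusted p from 0.0512 to 0.173), though the value stayed between 1.58 and 1.75. Every GIF-DTR sample was above every ATP4B-DTR sample for 15 members, against 9.27% of all genes tested, and every one below for 0 members, against 7.62%. In GIF/ATP4B-DTR against GIF-DTR, 49 members were lower, with a median of -0.49 beside 0.01 over all genes. Ifi27 and Ifi27l2a were called lower, at -2.38 ± 0.30 (SE, adjusted p = 0.00211) and -1.98 ± 0.26 (SE, adjusted p = 0.00235) (edgeR, 2 lower and 0 higher, against 2.19% and 0.336% of all genes). All GIF/ATP4B-DTR samples were below all GIF-DTR samples for 11 members, against 14.2% of all genes, and above them for 0, against 12.2%. GIF/ATP4B-DTR against ATP4B-DTR gave 0 calls in either direction by edgeR, with 2 members at an unadjusted p under 0.05 and 0 of 14889 genes called (0.0% in each direction), and 24 of 52 members above 0. DESeq2 called 0 members there, beside 72 genes higher (0.504%) and 222 lower (1.55%). The samples of these 2 lines did not overlap for 1 member in each direction, against 7.03% (higher) and 8.12% (lower) of all genes. The 2 comparisons with GIF-DTR share its samples, so their opposite signs are not separate observations.

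The Y-linked split divides GIF-DTR from the controls and GIF/ATP4B-DTR completely, and from ATP4B-DTR in 1 of 3 samples. The members' mean log2 level was 4.96 and 5.40 in the ATP4B-DTR samples without Y-linked expression and 4.40 in the one with it, and 5.48, 5.67 and 5.35 in GIF-DTR. The values of 5.12 and 3.35 (controls) and of 4.68, 5.51 and 4.36 (GIF/ATP4B-DTR) were all from samples with Y-linked expression. With a Y-linked index as covariate, edgeR called 1 member higher in GIF-DTR than in control instead of 5, namely Ifi27l2a. The share of all genes called higher in that comparison fell as well, from 9.97% to 2.38%. Of the values that were no longer called, Irf1 was at 1.36 (adjusted p = 0.206), Psmb10 at 1.32 (adjusted p = 0.078), Psmb9 at 0.97 (adjusted p = 0.44) and Ifi35 at 0.85 (adjusted p = 0.364) on the log2 scale (edgeR). The call of Ifi35 in ATP4B-DTR was lost too, at 0.70 (adjusted p = 0.271) (edgeR). Outside the members, 19 of the 20 single-gene calls followed in GIF-DTR against control were lost with the covariate, all but that of Mavs, while 6 of 14 were lost in ATP4B-DTR and 0 of 20 in GIF/ATP4B-DTR. Between the lines the covariate left 0 member calls that involve GIF-DTR, while the calls over all genes went from 60 to 18 higher against ATP4B-DTR and from 326 to 13 lower in GIF/ATP4B-DTR against GIF-DTR. The values themselves were no smaller: Ifi27 was at 1.70 (adjusted p = 0.153) against ATP4B-DTR, and Ifi27 and Ifi27l2a at -2.53 (adjusted p = 0.206) and -2.32 (adjusted p = 0.153) in GIF/ATP4B-DTR against GIF-DTR (edgeR). Among samples without Y-linked expression, Ifi27 still differed between GIF-DTR and ATP4B-DTR, at 1.68 (adjusted p = 0.0127) with 3 and 2 samples (edgeR). In GIF-DTR against control and in GIF/ATP4B-DTR against GIF-DTR every sample of one side has Y-linked expression and none of the other, so within those samples the split and the genotype cannot be told apart, and the covariate rests on ATP4B-DTR, the one line with both kinds of sample. GIF/ATP4B-DTR and the controls do not differ in it.

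Markers of other cell types moved between samples as well. Fibroblast markers summed to 37.9 and 329 CPM in controls 1 and 2, 146, 58.8 and 185 in ATP4B-DTR, 481, 128 and 174 in GIF-DTR, and 62.7, 159 and 74.2 in GIF/ATP4B-DTR. Smooth muscle markers summed to 288 and 1731 CPM in controls 1 and 2, 622, 372 and 920.1 in ATP4B-DTR, 1915, 542 and 338 in GIF-DTR, and 203, 479.8 and 428 in GIF/ATP4B-DTR. Control 2 and GIF-DTR 1 were thus high in both, while the members were lowest in control 2 and high in GIF-DTR 1. Macrophage and monocyte markers (13 of 13 tested) summed to 18.0 and 88.1 CPM in controls 1 and 2, 53.1, 55.4 and 104 in ATP4B-DTR, 117, 156 and 193 in GIF-DTR, and 41.1, 72.6 and 51.2 in GIF/ATP4B-DTR, with all GIF-DTR samples above every other sample. Of these markers 1 was higher and 0 lower in GIF-DTR against control, near the 9.97% and 6.82% of all genes, 11 of 13 had a fold change above 0, beside 7362 of all 14889 genes, and 0 of 13 were above 0 in GIF/ATP4B-DTR against GIF-DTR. B and plasma cell markers were 332 CPM in control 2, 20.6 in control 1 and at most 18.4 in the lines. T cell markers summed to between 0.921 and 4.60 CPM and NK cell markers to between 0.124 and 1.84, and the plasmacytoid dendritic cell marker Siglech lay between 0.0356 and 0.378. Chief cell markers summed to 85865 and 192398 CPM in controls 1 and 2, 61990.2, 16997 and 37538 in ATP4B-DTR, 22606, 5106 and 6052 in GIF-DTR, and 2821, 11450.1 and 12419.9 in GIF/ATP4B-DTR, so control 2 was the highest sample and every line sample was below both controls. Pit cell markers, of the surface mucous cells, summed to 121259 and 76882 CPM in controls 1 and 2, 43378, 94489.6 and 64846 in ATP4B-DTR, 84588, 91196 and 67279 in GIF-DTR, and 86940.2, 81588 and 94799 in GIF/ATP4B-DTR, with control 1 the highest and ATP4B-DTR 1 the lowest. The list for plasmacytoid dendritic cells also holds Bst2, a member. The part of these cell types in the members' levels was not tested.

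**Figure D5:**
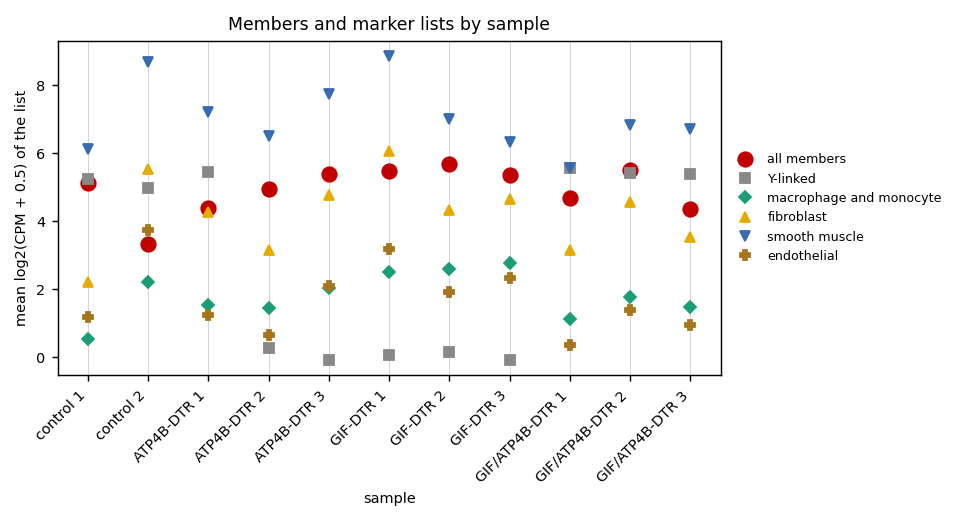
Mean log2(CPM + 0.5) of the 52 members and of 5 marker lists (Y-linked, macrophage and monocyte, fibroblast, smooth muscle, endothelial) in each sample. The members are lowest in control 2, where the smooth muscle, fibroblast and endothelial lists are high, and the Y-linked list separates 6 samples from 5.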

How the data were processed

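A column kit for RNA and a stranded mRNA library kit were used, per the labels' protocols, and the genome build was mm10, per the submitters' processing notes. The authors deposited 1 table of estimated counts per gene. The aligner, quantifier and annotation are not given in the sources used here. Of the nonzero deposited estimated counts 30.7% were fractional, and all were rounded. The analysis plan had assumed whole counts, and the test was kept. Symbols were found for 34582 of 34866 rows. The members and gene lists were chosen with earlier results of these data known.

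Genes were tested with edgeR 4.0.16 (limma 3.58.1, R 4.3.3), using TMM scaling, the filter of edgeR on low counts, robust quasi-likelihood fits over all 4 genotypes and Benjamini-Hochberg adjustment over 14889 genes at 0.05. The common biological coefficient of variation was 26.6%. The scripts were tested on simulated data. Statistics were given for members past the threshold and for the member with the highest mean CPM in each of 7 role groups, and, chosen after their values were seen, for Iigp1, Tap1 and Tap2. Genes outside the 52 were named if they were past the threshold or highest in a pathway list, in a marker list, or Atp4b or Gif. Alternatives were other scalings, filters and moderation, DESeq2 1.42.0, the compared groups only, a Y-linked index as covariate, samples without Y-linked expression only, and leaving out each sample. Promoter windows came from RefSeq (GRCm38.p6), and 13 members had none.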

Additional observations from a re-analysis of the deposited data

Results flagged for a closer look

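Differences between lines that passed edgeR's test concerned 4 genes among the members and the interferon and presentation pathway lists, the marker lists of cell types aside. Ifi27 exceeded its ATP4B-DTR level by 1.65 on the log2 scale in the GIF-DTR samples and differed by -2.38 between GIF/ATP4B-DTR and GIF-DTR. Ifi27l2a differed by -1.98 and Sp140, a nuclear-body gene outside the 52, by -2.38 between GIF/ATP4B-DTR and GIF-DTR. Psma6, a constitutive proteasome subunit, was higher by 0.52 in GIF/ATP4B-DTR than in GIF-DTR. Leaving out any 1 sample of the 2 lines compared ended the call for Psma6, Sp140 and the Ifi27 difference between GIF-DTR and ATP4B-DTR, and did not for the other differences of Ifi27 and Ifi27l2a. The Psma6 call held in 7 of 20 alternatives and was also lost with total counts, without a filter, with only the 2 groups fitted, with the Y-linked covariate and without any 1 ATP4B-DTR sample. The Sp140 call held in 9 of 19 and was also lost with only the 2 groups fitted, with the covariate and without ATP4B-DTR 1 or 3. The covariate ended the calls of Ifi27 and Ifi27l2a too.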

How the results depend on the processing

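No paired analysis was possible because the titles of the controls alone carry replicate numbers. Of 74 called single-gene values 17 kept their call under every alternative run, 27 under every alternative other than leaving out a sample, and 0 changed sign. Members called higher against control numbered 6, 13 and 7 in the 3 lines in order with total counts, where 25.7%, 26.0% and 31.0% of all genes were called higher, and 12 and 6 with DESeq2 in the last 2 of them, where 13.0% and 20.1% were. Without a filter they numbered 3 (GIF-DTR) and 1 (GIF/ATP4B-DTR), and with the Y-linked covariate 1 in GIF-DTR, against 5.96%, 10.8% and 2.38% of all genes. Fitting only the 2 groups compared gave 2, 4 and 2, against 9.51%, 9.01% and 16.5% of all genes, and ended the calls of Ifi27l2a in ATP4B-DTR (edgeR, adjusted p = 0.0519), Irf1 and Psmb9 in GIF-DTR (0.146 and 0.116) and Ifi35 in GIF/ATP4B-DTR (0.0874). Without a filter Ifi35 was also not called in ATP4B-DTR (0.0868). In GIF-DTR against ATP4B-DTR 3 were higher with DESeq2 (1.45% of all genes), 0 without a filter (0.356%) and 0 with the covariate (0.121%). In GIF/ATP4B-DTR against GIF-DTR 4 were lower with DESeq2 (4.7% of all genes) and 0 with the covariate (0.0873%). Leaving out 1 sample gave 1 to 20, 2 to 26 and 1 to 24 higher against control, 1 to 3 lower in GIF/ATP4B-DTR, 0 to 1 higher in GIF-DTR against ATP4B-DTR, and 2 to 3 lower in GIF/ATP4B-DTR against GIF-DTR. Over the same fits the shares of all genes were 3.51% to 12.4%, 2.72% to 10.3% and 8.91% to 18.3% higher against control, 9.68% to 16.4% lower in GIF/ATP4B-DTR, and between lines 0.101% to 0.573% and 1.0% to 2.18%. The signs that turned belonged to values that were not called. With total counts Ifi27 in GIF-DTR was 0.0541, Lgals3bp in ATP4B-DTR 0.16 and Tapbp in GIF/ATP4B-DTR 0.27. With the covariate Eif2ak2, Irgm1 and Tapbp in ATP4B-DTR were -0.0063, -0.17 and -0.16, and Lgals3bp in GIF-DTR was -0.19. Leaving out 1 sample, the log2 fold change ran in ATP4B-DTR from -0.11 to 0.79 for Eif2ak2, from -0.29 to 1.81 for Irgm1, from -0.70 to 0.61 for Lgals3bp, from -0.17 to 1.12 for Oasl1, from -0.003 to 0.85 for Samd9l and from -0.24 to 0.47 for Tapbp. In GIF-DTR it ran from -0.65 to 0.11 for Ifi27, from -0.24 to 1.08 for Lgals3bp and from -0.11 to 1.18 for Oasl1. In GIF/ATP4B-DTR it ran from -0.11 to 0.795 for Eif2ak2, from -0.10 to 2.25 for Irf7, from -1.01 to 0.31 for Lgals3bp and from -0.38 to 0.33 for Tapbp. The ends of these ranges came from leaving out a control, and otherwise the cause was not tested. Genes near 3 counts, such as Ifne and Cxcl11, are limited by depth.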
